A study of Mus musculus with 15 samples.

Results

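Aquaporins are membrane channels that let water, and in some members glycerol or other small solutes, cross the plasma membrane along osmotic and concentration gradients. Their mouse genes on the array were taken by name: every probe that was not a control and whose gene name, or the current symbol of whose RefSeq accession, was Aqp1, Aqp2, Aqp3, Aqp4, Aqp5, Aqp7, Aqp8, Aqp9 or Aqp11. This gave 9 genes with 14 probes, among 27666 names on the array, and 8 of the 9 were among the 20305 genes tested. Aqp9 was not tested, because in no group did all 3 arrays show any of its 3 probes well above background. Aqp1, Aqp2, Aqp3, Aqp5, Aqp8 and Aqp11 were well above background on all 15 arrays, Aqp7 on 12 and Aqp4 on 7, by the probe used for each gene.

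The uteri came from ovariectomized CD-1 mice, an outbred strain whose own ovarian oestrogen had been removed by the surgery in all groups. The 15 one-colour arrays made 5 groups of 3: uteri taken 2 h after 250 ng of E2, 2 h after 250 ng of E3, 24 h after E2, 24 h after E3, and after vehicle. Each injection was 100 µl of saline, with or without the hormone, and no collection time for the vehicle group was given in the labels. E2 and E3 are taken to be estradiol and estriol, the usual reading of these abbreviations; estriol has an additional hydroxyl group on the steroid D ring. Whether replicates came from separate animals is not stated, and the p-values therefore refer only to the spread among these arrays, which may be technical. Each array held RNA of uterine tissue with all its cell types, in which fewer cells of a type and less RNA per cell cannot be told apart.

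In the rodent uterus, oestrogen is known for a rapid uptake of water into the tissue, which comes before growth and cell division. Water-selective aquaporins carry water across the membranes of epithelium, endothelium and muscle, while the aquaglyceroporins Aqp3, Aqp7 and Aqp9 also carry glycerol. Aqp11 is a distant member of the family, found inside the cell as well as at its surface.

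Promoters are printed for Aqp8, Aqp5 and Aqp2, which rose within 2 h of both hormones, and for Aqp11, which fell. Aqp1 also fell within 2 h of both, and its promoter is not printed. Each runs from 250 bases before to 50 bases after the start of the gene, as RefSeq gives it on GRCm38.p6. Capitals mark GGTCA or its reverse complement TGACC, the repeated unit of the oestrogen response element, and a promoter without capitals holds none. The lines are Aqp8 (chr7:123462044-123462343, plus strand), Aqp5 (chr15:99590778-99591077, plus strand), Aqp2 (chr15:99578806-99579105, plus strand) and Aqp11 (chr7:97738198-97738497, minus strand).
Aqp8: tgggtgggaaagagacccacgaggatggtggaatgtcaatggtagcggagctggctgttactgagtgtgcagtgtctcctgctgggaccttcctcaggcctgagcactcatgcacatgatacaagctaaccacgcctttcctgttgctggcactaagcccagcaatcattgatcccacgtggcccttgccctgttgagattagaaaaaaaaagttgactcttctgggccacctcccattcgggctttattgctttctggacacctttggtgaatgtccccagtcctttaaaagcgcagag
Aqp5: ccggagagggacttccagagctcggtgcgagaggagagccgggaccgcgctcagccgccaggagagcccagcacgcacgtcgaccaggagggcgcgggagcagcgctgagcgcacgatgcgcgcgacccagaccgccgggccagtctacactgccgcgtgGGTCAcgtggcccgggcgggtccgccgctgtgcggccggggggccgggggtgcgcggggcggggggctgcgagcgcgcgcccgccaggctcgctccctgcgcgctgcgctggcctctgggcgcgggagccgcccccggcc
Aqp2: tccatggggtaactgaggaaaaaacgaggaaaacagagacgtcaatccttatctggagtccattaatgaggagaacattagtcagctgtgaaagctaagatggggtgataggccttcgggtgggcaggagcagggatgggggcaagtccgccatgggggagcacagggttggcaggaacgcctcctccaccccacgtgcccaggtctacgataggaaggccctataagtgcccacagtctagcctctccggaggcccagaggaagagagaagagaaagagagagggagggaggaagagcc
Aqp11: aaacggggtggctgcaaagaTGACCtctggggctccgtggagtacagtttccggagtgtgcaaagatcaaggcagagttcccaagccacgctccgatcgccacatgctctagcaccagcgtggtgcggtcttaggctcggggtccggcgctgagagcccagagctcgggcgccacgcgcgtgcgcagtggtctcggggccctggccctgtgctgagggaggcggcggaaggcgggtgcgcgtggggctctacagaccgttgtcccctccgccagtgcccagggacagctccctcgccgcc

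GGTCA stood once in the Aqp5 promoter, at position -90 from the start, and once in that of Aqp11, at position -230, on the opposite strand to the gene. Of 32851 promoters of 300 bases, 40.5% held GGTCA on either strand. The full element, GGTCA followed after 3 bases by TGACC, which contains the unit on both strands, was in 0.07% of all promoters, and TGANTCA, the AP-1 site, was in 7.81%; neither was in the 4 promoters shown. Among promoters not printed, those of Aqp1 and Aqp3 held no GGTCA on either strand. Aqp7, not called at 2 h, and Aqp9, not tested, held it, and Aqp9 also held an AP-1 site. A match is a run of letters in this window, not a bound site. In RefSeq, Aqp2 and Aqp5 are neighbouring genes on chromosome 15, followed by Aqp6, and Aqp7 and Aqp3 are neighbours on chromosome 4.

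Levels are log2 processed signals minus the 75th percentile of the array, so 0 is the level of a bright probe, and levels of different probes are not comparable. Across arrays that percentile was 1053 to 1853 in signal, and 63.1% (E3 24 h replicate 2) to 80.0% of probes were well above background. Pearson correlations between arrays of a group were 0.986 to 0.992, apart from E3 24 h. There every pair of arrays, that of replicates 1 and 2 included, was within 0.962 to 0.974. One array of that group, replicate 3, held pancreatic acinar transcripts: 14 genes of a list chosen after the values were seen averaged 8.42 there, against -5.64 and -5.28 on the other E3 24 h arrays. The 14 averaged -0.32, -2.25 and -3.25 in E2 24 h replicates 1, 2 and 3, and -6.19 to -5.50 on all arrays of E2 2 h, E3 2 h and vehicle. The uterine identity of the tissue was checked against 8 uterine genes such as Esr1, Pgr and Hoxa10, all of which were well above background on every array. All vehicle arrays were on a slide of their own, so slide and group cannot be told apart in comparisons with vehicle. E2 and E3 of one time shared no slide, and a fit of the hormone arrays with slide as a fixed block compares them only through slides that held other pairs of groups.

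Within 2 h of E2, Aqp8, Aqp5 and Aqp2 rose and Aqp1 and Aqp11 fell. Within 2 h of E3, Aqp8, Aqp5 and Aqp2 rose and Aqp1 and Aqp11 fell. Aqp4 was also called lower after E3 and is counted here, but 0 of 3 E3 2 h arrays were well above background. Its call was lost in 6 of 27 other settings. The counts were 5 of 8 genes tested for E2, where 38.7% of all genes were called, and 6 of 8 for E3, where 40.2% were; these 2 comparisons share the vehicle arrays. Calls are at 0.05 for the Benjamini-Hochberg adjusted p of limma, taken over all genes tested. The median change of the 8 tested aquaporins was 0.73 after E2 and 0.69 after E3, beside -0.14 and -0.16 over all genes, with no test of the group as such. With the array median as scale, which moves the median of all genes by 0.18 for E2 and 0.24 for E3, the split was 4 higher and 1 lower for E2, and 4 higher and 2 lower for E3: Aqp3 was then called and Aqp1 was not.

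Aqp8, a water and ammonia channel of the gut and of gland cells, those of the pancreatic acinus among them, had the largest change of the 8 genes at 2 h. Its probe lies at chr7:119570588-119570647 on mm7, the build the file headers name; the place of the probes in exons or UTRs was not analysed here. Its levels were 1.21, 1.59 and 2.00 in E2 2 h uteri, 2.07, 1.82 and 2.12 in E3 2 h uteri, and -4.72, -4.43 and -4.45 in vehicle uteri. The 6 hormone arrays at 2 h lay above all vehicle arrays by more than 5 log2 units. The change was 6.13 ± 0.87 (SE, n = 3 a group) after E2, a factor of 70.1 (adjusted p = 0.000166, limma), and 6.53 ± 0.87 after E3, a factor of 92.6 (adjusted p = 9.96e-05). At 24 h the levels were -2.55, -3.78 and -4.11 in E2 uteri and -4.02, -2.62 and 0.78 in E3 uteri, all above the vehicle range. The change at 24 h did not pass the test for E2 (1.05, adjusted p = 0.354) or for E3 (2.58, adjusted p = 0.0548). The highest E3 value came from replicate 3, the array with pancreatic transcripts. In E2 24 h uteri, too, Aqp8 and the mean of the 14 acinar genes were both highest in replicate 1 and lowest in replicate 3. Deviations from the group means of Aqp8 and of the acinar mean correlated with r = 0.94 over the 15 arrays, a description that includes the array at 8.42. The levels themselves, with the differences between groups left in, correlated with r = 0.005. The part of pancreatic RNA in the Aqp8 levels was not tested. Without that array the change was 1.21 (adjusted p = 0.0908), and without E2 24 h replicate 1 as well it passed (1.21, adjusted p = 0.0492); without E3 24 h replicate 1 it was 3.61 (adjusted p = 0.0087). In E3 24 h replicate 2, Aqp8 was at -2.62 and the acinar mean at -5.28. In the 2 h groups, where Aqp8 was highest, the acinar mean was -6.19 to -5.50 on all 6 arrays. The fall between 2 h and 24 h passed for E2 (-5.08 ± 0.87, adjusted p = 0.0004) and for E3 (-3.95 ± 0.87, adjusted p = 0.00279). One slide held both times of E2, and within it the difference was -5.57 (1 array at 24 h, 2 at 2 h). In the fit with a fixed slide block the E3 fall was -3.71 and no longer called (adjusted p = 0.552). E2 and E3 differed at 2 h by -0.40 (95% interval -2.30 to 1.50) and at 24 h by -1.53 (interval -3.43 to 0.37), which was -0.16 without E3 24 h replicate 3, and -2.56 and called without E3 24 h replicate 1 (adjusted p = 0.0435).

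Aqp5, a water channel of secretory glands, was measured by a probe at chr15:99579945-99580003 (mm7). It had levels of 4.81, 4.76 and 4.54 in E2 2 h uteri, 4.31, 4.87 and 4.97 in E3 2 h uteri, and 0.82, 0.30 and 1.93 in vehicle uteri. The arrays of both hormones stood above all vehicle arrays, and the group means differed 12.8-fold after E2 (3.68 ± 0.47, adjusted p = 7.65e-05) and 13.0-fold after E3 (3.70 ± 0.47, adjusted p = 7.1e-05). At 24 h it was 1.85, 2.44 and 2.53 in E2 uteri and 1.33, 3.06 and 1.28 in E3 uteri, overlapping the vehicle range. The 24 h change passed for E2 only just (1.26 ± 0.47, adjusted p = 0.0475) and not for E3 (0.87, adjusted p = 0.204), and the E2 call was lost in 16 of 28 other settings, among them the replicate block (adjusted p = 0.0543). The 24 h minus 2 h change was -2.43 after E2 and -2.82 after E3 (adjusted p = 0.000961 and 0.000433). At 2 h, E2 and E3 differed by -0.01 (interval -1.04 to 1.01).

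Aqp2, the vasopressin-regulated channel of the kidney collecting duct, was measured by a probe whose bases span chr15:99567392-99568368 (mm7). It rose with both oestrogens at 2 h: 0.85 ± 0.17 after E2 (adjusted p = 0.00195) and 0.82 ± 0.17 after E3 (adjusted p = 0.00234). Its levels were -2.36, -2.10 and -2.36 in E2 2 h uteri, -2.56, -2.22 and -2.12 in E3 2 h uteri, and -3.21, -3.26 and -2.90 in vehicle uteri. All hormone arrays exceeded all vehicle arrays. At 24 h the changes were 0.17 for E2 and 0.31 for E3, and neither passed. The 24 h minus 2 h change was -0.68 for E2 (adjusted p = 0.00516) and -0.52 for E3 (adjusted p = 0.0257); the E3 call was lost without E3 2 h replicate 2 or 3 or E3 24 h replicate 1 (-0.48, -0.43 and -0.33). With slide as a fixed block both calls were lost, at -0.69 for E2 (adjusted p = 0.0792) and -0.16 for E3 (adjusted p = 0.886). E2 and E3 differed at 2 h by 0.03 (interval -0.35 to 0.40). Levels of Aqp2 and Aqp5, neighbours in the genome, correlated across arrays with r = 0.93 (n = 15, a description over arrays that share their groups). For pairs that are not neighbours, r was 0.90 for Aqp2 and Aqp8 and -0.92 for Aqp5 and Aqp11. For the neighbours Aqp3 and Aqp7 it was 0.33. Aqp6, the gene next to Aqp5, was on no array well above background.

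**Figure D1:**
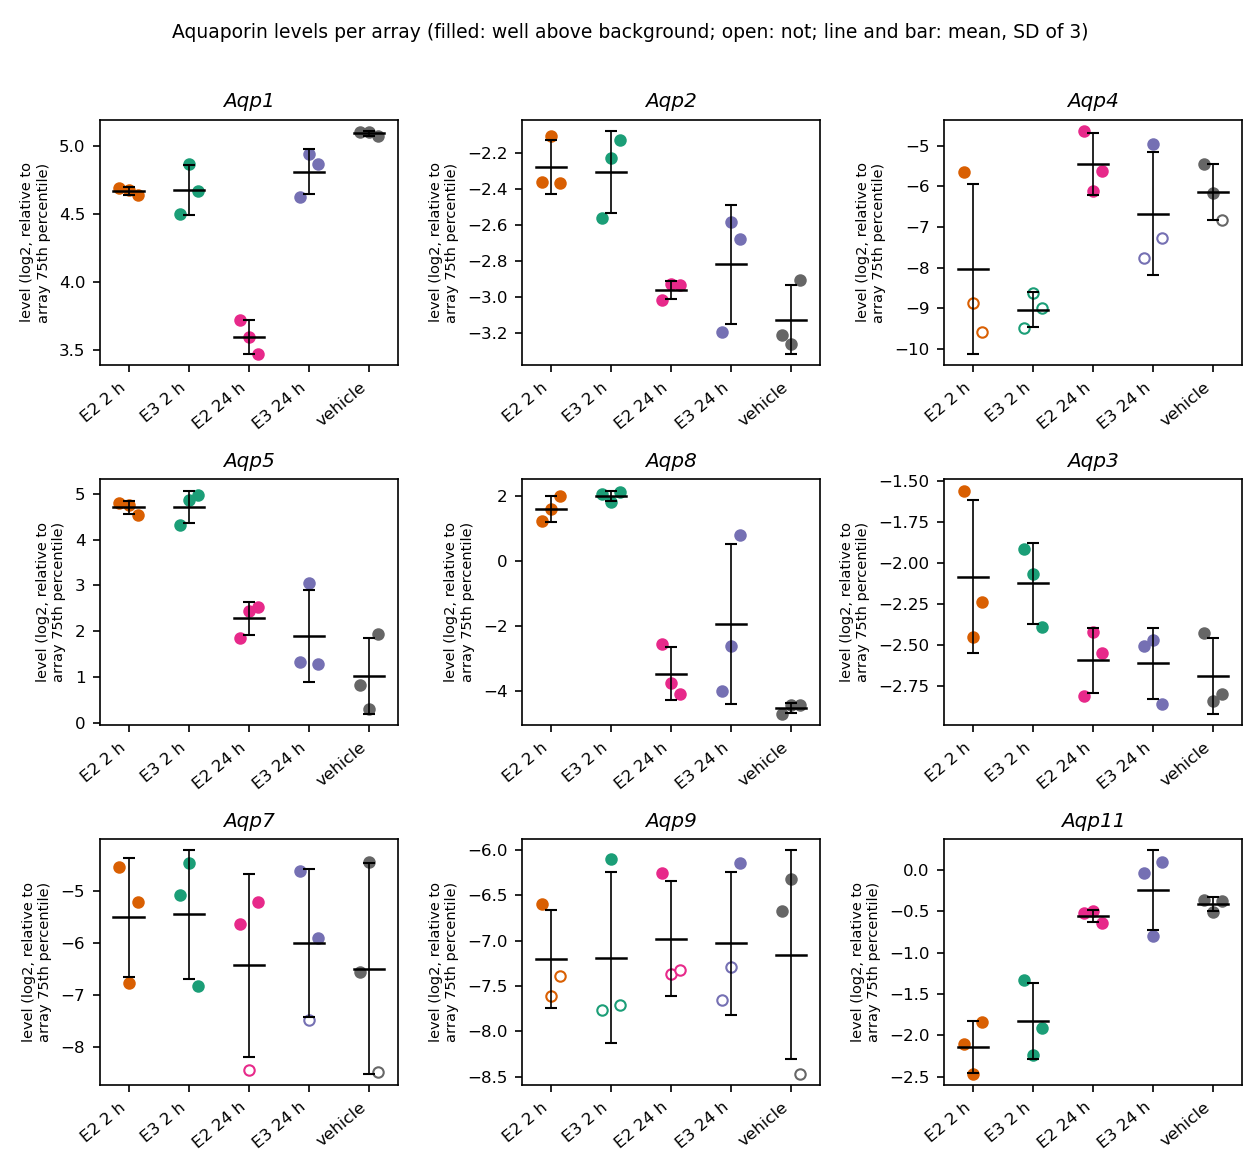
Level of each aquaporin on each array (points, in log2 units relative to the array's 75th percentile; filled where the probe was well above background) in the 5 groups, with mean and SD of 3. Aqp8 and Aqp5 are far higher in both 2 h groups, Aqp11 is lower in them, and Aqp1 is lowest in E2 24 h.

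Aqp1, the water channel of endothelium and red cells, fell with both oestrogens at 2 h and with E2 at 24 h, where E2 and E3 differed. Its probe lies at chr6:55311856-55311915 (mm7). Levels were 4.69, 4.67 and 4.64 in E2 2 h uteri, 4.50, 4.86 and 4.66 in E3 2 h uteri, 3.72, 3.59 and 3.47 in E2 24 h uteri, 4.63, 4.94 and 4.87 in E3 24 h uteri, and 5.10, 5.10 and 5.07 in vehicle uteri. Every hormone array was below every vehicle array, and the E2 24 h arrays were below all others. At 24 h the fall was 1.50 ± 0.12 after E2 (adjusted p = 7.97e-06), to 0.355 of the vehicle level, and the difference after E3 was -0.28 ± 0.12 (adjusted p = 0.108). The difference between E2 and E3 at 24 h was -1.21 ± 0.12 (95% interval -1.47 to -0.96, adjusted p = 0.000107, limma), and it was the only aquaporin called there, where 15.7% of genes were. At 2 h that difference was -0.01 (interval -0.27 to 0.25), and the change of the difference between times was itself called (-1.21 ± 0.17, adjusted p = 0.00331), where 6.23% of genes were called. When slide entered as a fixed block the 24 h difference was -1.31 (adjusted p = 0.18) and the change of the difference -1.30 (adjusted p = 0.466), neither called; no gene was called for these 2 comparisons in that fit, which called 7764 genes for E2 24 h minus 2 h. The smaller falls at 2 h, 0.42 after each oestrogen (adjusted p = 0.013 and 0.014), were not called with the array median as scale (-0.25 after E2, -0.18 after E3). On scan day 1 alone, and likewise without E3 2 h replicate 1, the E3 change at 2 h was -0.33 and not called (adjusted p = 0.0522 and 0.0579), and with quantile normalization the E3 change at 24 h was -0.68 and called (adjusted p = 0.00608). The 24 h minus 2 h change was -1.07 for E2 (adjusted p = 1.51e-05) and 0.14 for E3, which did not pass. Endothelial marker genes, 10 of 10 well above background, averaged 0.74 to 0.96 in E2 24 h, 0.92 to 1.31 in E3 24 h and 1.13 to 1.33 in vehicle; their summed level was 26.1 to 27.8 in E2 24 h, 32.4 to 44.0 in E3 24 h and 35.0 to 38.9 in vehicle. Against vehicle at 24 h, 6 of these 10 genes fell and 1 rose after E2, where 43.4% of all genes were called. After E3, 1 fell and 1 rose, where 20.3% were. At 24 h, 1 was higher and 2 were lower in E2 than in E3, where 15.7% were called. Of 3 erythrocyte genes tested, 2 rose after each oestrogen at 24 h. The summed level of 6 erythrocyte genes was 25.2 to 45.1 in E2 24 h, 21.5 to 36.1 in E3 24 h and 11.6 to 19.2 in vehicle. The part of endothelium and red cells in the Aqp1 result was not tested.

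Aqp11, an intracellular channel, fell at 2 h with both oestrogens. Its probe lies at chr7:93757914-93757973 (mm7). Its levels were -2.11, -2.47 and -1.85 in E2 2 h uteri, -1.33, -2.24 and -1.91 in E3 2 h uteri, -0.52, -0.50 and -0.65 in E2 24 h uteri, -0.04, -0.79 and 0.10 in E3 24 h uteri, and -0.36, -0.51 and -0.37 in vehicle uteri. The 2 h arrays of both hormones lay below all vehicle arrays, and the 24 h arrays overlapped them. The falls were 1.73 ± 0.26 after E2 (adjusted p = 0.000218) and 1.41 ± 0.26 after E3 (adjusted p = 0.000881). Neither 24 h change passed (-0.14 and 0.17), and the 24 h minus 2 h change was 1.58 after each hormone (adjusted p = 0.000251 and 0.000341). In the fit with a fixed slide block the E3 value was 0.83 and not called (adjusted p = 0.476). E2 and E3 differed at 2 h by -0.31 (interval -0.87 to 0.24).

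Aqp4, a brain and muscle water channel, was dim: its probe was well above background on 1 of 3 arrays in E2 2 h, 0 in E3 2 h, 3 in E2 24 h, 1 in E3 24 h and 2 in vehicle. It was tested only because all 3 E2 24 h arrays were well above background, and E2 24 h was also its highest group. Comparisons with E2 24 h are therefore not independent of the choice to test it. Where no array of a group was well above background, the size of a difference is not known. Against vehicle the measured difference in E3 2 h was -2.90 (adjusted p = 0.0258, limma), with 0 arrays of E3 2 h and 2 of 3 in vehicle well above background. That call was lost with normexp background (-0.30, adjusted p = 0.39) and without E3 2 h replicate 1 or 3 or vehicle replicate 1 or 2. The E2 2 h difference was -1.89 (adjusted p = 0.128), and it was called on scan day 1 alone and without E2 2 h replicate 1 (adjusted p = 0.000545 and 0.00693), where none of the E2 2 h arrays left was well above background. The measured difference of E3 24 h from E3 2 h was 2.37, which did not pass (adjusted p = 0.0509). E2 24 h exceeded E2 2 h by 2.58 (adjusted p = 0.0337), a value that includes 2 arrays not above background at 2 h; the call was lost without any one of E2 2 h replicates 2 and 3 and E2 24 h replicates 1 and 3 (1.81 to 2.66), and with normexp background (0.62, adjusted p = 0.0586). Another Aqp4 probe was well above background on no array at 2 h after either hormone and on 2 of 3 vehicle arrays. Its measured differences from vehicle were -1.36 in E2 2 h and -2.36 in E3 2 h. Their adjusted p was 0.0396 and 0.0019 in a limma fit of single probes, and their size is not known. Vehicle replicate 3, not well above background, was at -6.54, while replicates 1 and 2, well above it, were at -6.60 and -6.90. Being well above background therefore marks no level from which a smallest fold could be given. The remaining Aqp4 probe was well above background on no vehicle array and on no 2 h array.

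Aqp3 and Aqp7 were called in none of the comparisons. Aqp3, a glycerol and water channel of epithelia, had levels of -2.45 to -1.56 in E2 2 h, -2.39 to -1.91 in E3 2 h and -2.85 to -2.43 in vehicle uteri; the changes of 0.61 (adjusted p = 0.0502) and 0.57 (adjusted p = 0.0637) did not pass. The E2 value was called in 9 of 28 other settings and the E3 value in 4 of 28. Aqp7, the glycerol channel of adipocytes, had a broad spread within each group (SD 1.15 to 2.02) over the 5 groups. Its level tracked 10 adipocyte genes, such as Adipoq, Plin1 and Fabp4, across the 15 arrays with r = 0.95 and rho = 0.96 (r = 0.97 within groups, 0.91 without the 2 arrays farthest from the median); this was the highest of 126 gene and list pairs and was chosen for that. The adipocyte list had no gene called in any comparison, beside 20.3% to 43.4% of all genes called against vehicle. The list mean ran from -0.59 to 2.84 within vehicle alone, so the lack of calls does not show equal levels. Aqp9, an aquaglyceroporin of liver, was well above background on 6, 0 and 2 of 15 arrays by its 3 probes. The brightest, with 6 arrays, had means of -7.20 in E2 2 h, -7.19 in E3 2 h, -6.98 in E2 24 h, -7.03 in E3 24 h and -7.15 in vehicle.

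**Figure D2:**
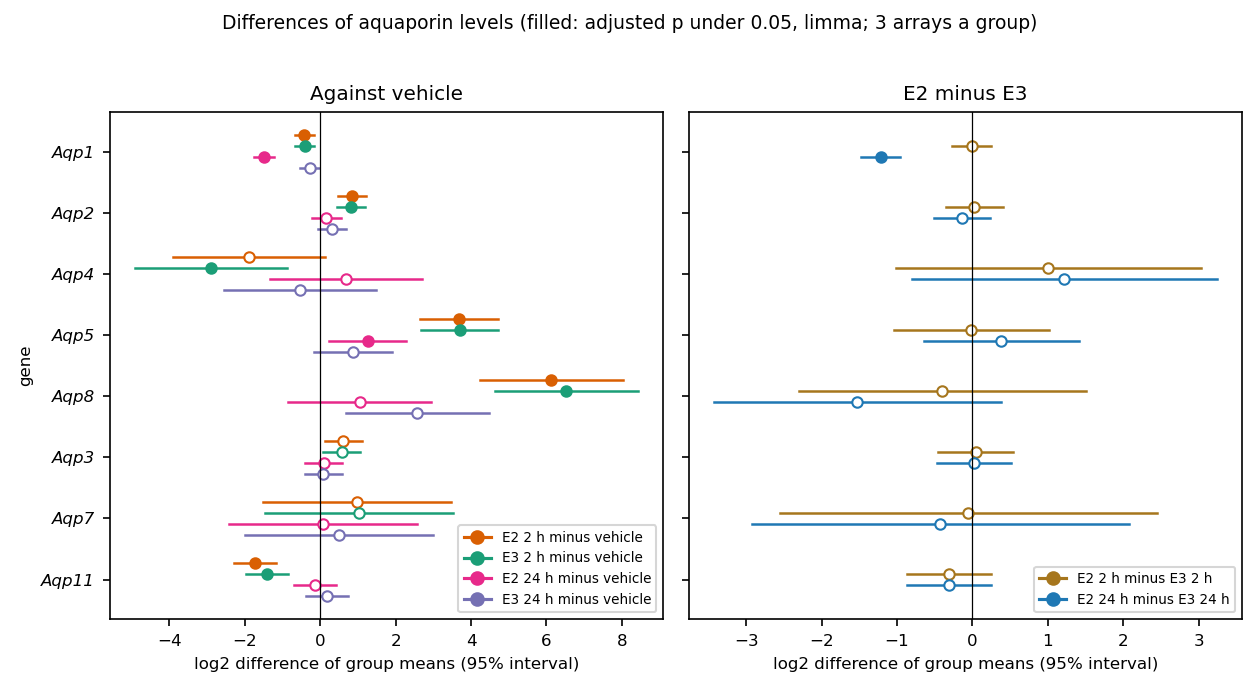
Log2 differences of the 8 tested aquaporins with 95% intervals, against vehicle for the 4 hormone groups (left) and between the oestrogens at each time (right); filled points have an adjusted p under 0.05. Aqp8 and Aqp5 rise at 2 h after both hormones, and the one filled point between the hormones is Aqp1 at 24 h; the Aqp4 point for E3 2 h rests on signals not above background.

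Over the other comparisons, E2 24 h called 2 of the 8 (Aqp5 higher, Aqp1 lower; 43.4% of genes called) and E3 24 h called 0 of 8 (20.3%), with 2 at an unadjusted p under 0.05. E2 against E3 at 2 h called 0 of 8 and 0.00% of all genes, with 0 aquaporins and 750 genes at an unadjusted p under 0.05; the intervals of the 8 differences there ran as wide as -2.55 to 2.44 (Aqp7) and as narrow as -0.27 to 0.25 (Aqp1), so a lack of difference was not shown. From 2 h to 24 h, E2 called 6 of 8 (52.3%) and E3 called 4 of 8 (49.6%). The 6 include Aqp4, which was tested only because of its E2 24 h arrays.

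Among other fluid transport genes, a list of 19 tested, 6 rose and 3 fell at 2 h with each oestrogen, or 9 of 19 called where 38.7% (E2) and 40.2% (E3) of all genes were. The list's median change was -0.07 after E2 and -0.03 after E3, beside -0.14 and -0.16 over all genes. Those that rose included the sodium-proton exchanger Slc9a2 (3.64 after E2 and 3.51 after E3), the kinase Sgk1 (2.61 and 2.57) and the epithelial sodium channel subunits Scnn1g (2.07 and 1.57) and Scnn1a (1.46 in both). At 24 h the split was 4 higher and 5 lower after E2, and 2 higher and 2 lower after E3, where 43.4% and 20.3% of all genes were called. Clca1 rose by 3.51 after E2 and 2.74 after E3, and Scnn1b, the beta subunit, fell by 1.76 after E2 and differed between E2 and E3 by -1.43 (adjusted p = 0.00124). Against the same shares of all genes, of 7 osmotic response genes, 3 rose and 3 fell with E2 at 2 h, 3 and 2 with E3, 3 and 2 with E2 at 24 h, and 0 and 1 with E3 at 24 h; the osmolyte transporter Slc6a12 rose by 1.49 and 1.74 at 2 h, and Nfat5, a transcription factor of the osmotic response, fell by 0.86 and 0.91. Of 9 glycerol and triglyceride genes, 4 were called with E2 at 2 h (2 higher), 5 with E3 at 2 h (2 higher), 1 with E2 at 24 h (higher) and 0 with E3 at 24 h.

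**Figure D3:**
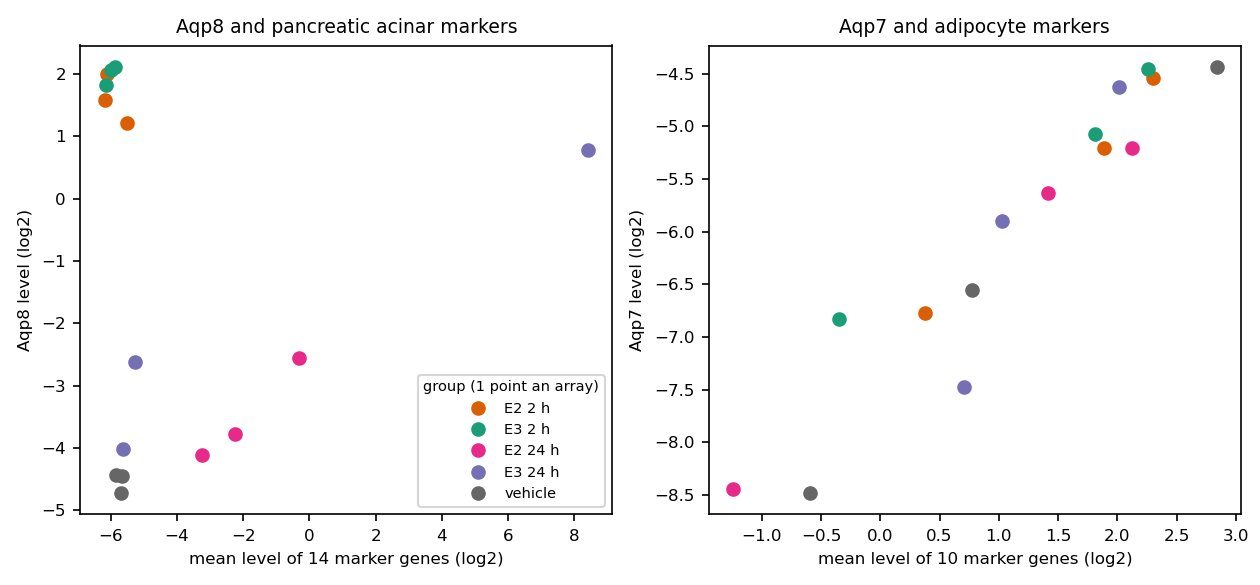
Left, Aqp8 level against the mean level of 14 pancreatic acinar genes; right, Aqp7 level against the mean of 10 adipocyte genes, each point 1 array. E3 24 h replicate 3 lies alone at 8.42 on the acinar axis, while the adipocyte and Aqp7 levels spread together in all groups.

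The genes whose levels over the 15 arrays were most like each aquaporin were Slc30a2 (r = 0.97), Ninj1 and Psen2 for Aqp8, Nup50 (r = 0.98), Zfp469 and Zbtb7a for Aqp5, Myo18a (r = 0.96), Cdk18 and Trabd for Aqp2, Dnajb6 (r = 0.98), Neto2 and Kcnt1 for Aqp1, and Eda2r (r = 0.99), Nthl1 and Ppfibp2 for Aqp11. They were Aurkc, Prr22 and Tas1r1 for Aqp4 (r up to 0.89), Dnajc24, Wdr82 and Upp2 for Aqp3 (r up to 0.84) and Lncbate1, Lctl and Orm2 for Aqp7 (r up to 0.98). The correlations describe arrays that share groups, and carry no p.

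The counts of cell type markers stand beside shares over all genes called against vehicle of 38.7% in E2 2 h, 40.2% in E3 2 h, 43.4% in E2 24 h and 20.3% in E3 24 h, and no list was tested as such. Of 7 stromal genes, 2 fell with E2 at 2 h and 6 with E3 at 2 h, 5 rose and 2 fell with E2 at 24 h, and 5 rose with E3 at 24 h. Of 7 smooth muscle genes, 0 were called at 2 h, and 4 rose with E2 and 6 with E3 at 24 h. Of 8 uterine genes, 4 were lower and 1 higher after E2 at 2 h, 5 lower and 1 higher after E3 at 2 h, and 3 lower at 24 h after each. Of 10 endothelial genes, 1 fell with E2 and 2 with E3 at 2 h. Of 9 epithelial genes, 1 rose and 1 fell with E2 at 2 h, 2 rose with E3, 3 rose with E2 at 24 h and 1 with E3. Of 7 macrophage genes, 1 fell with E2 at 2 h, and 1 rose with E2 and 4 with E3 at 24 h; no neutrophil gene of 7 was called against vehicle, and 1 or 2 of 3 erythrocyte genes rose in each group. None of the 14 pancreatic genes was called against vehicle, though their median change at 24 h was 3.59 after E2 and 4.88 after E3. The 5 groups share 1 estimate of the spread, which includes E3 24 h replicate 3 with its mean of 8.42. The lack of calls therefore does not show equal levels. The part of these cell types in the aquaporin results was not tested.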

How the data were processed

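Uterine RNA was labelled with Cy3 from 500 ng of total RNA and hybridised to one-colour Agilent arrays, per the labels' protocols. The authors deposited the intensity of each spot on a linear scale: the signal Feature Extraction 9.5.3.1 had processed, per the file headers (9.5 per the submitters' processing notes), background-subtracted and detrended, and not normalized between arrays. Flags for outliers, saturation and signals well above background were taken from the same deposited files. The values of the series matrix equalled these signals.

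The members, the lists, the rule for named genes and the tests were chosen with earlier results of these data known. Of 43379 spots that were not controls, flagged outliers were removed and repeats of a probe averaged, 53 probes then lacking a value were dropped, and the measure was the log2 signal minus the array's 75th percentile. Symbols came from RefSeq (GRCm38.p6). A gene was taken by its probe with the highest mean, and it was tested where the files called it above background on the 3 arrays of at least 1 group. With limma 3.58.1 in R 4.3.3, all 15 arrays entered a model of group means, and 9 contrasts were tested two-sided with Benjamini-Hochberg adjustment over 20305 genes, called under 0.05; files were read with data.table (version 1.17.8). The code was tested on simulated data. Named genes were all members, up to 4 called genes of each list with the largest change, and the 3 genes most correlated with each tested member. Lists covered other aquaporins (Mip, Aqp6 and Aqp12, none tested), ion transport, osmotic response, glycerol, and cell types.

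Whether replicate numbers pair the arrays is not known. Over 30 pairs of same-numbered arrays the deviations from group means correlated at -0.22 to 0.21, and 7 exceeded 0.1. Without such values for differently numbered arrays, these correlations cannot decide it. Alternatives were the array median, quantile normalization, normexp with an offset of 50, other filters and probe rules, groups alone, replicate, slide and scan day as blocks, and leaving out each array; the leaving out of E3 24 h replicate 3 together with E2 24 h replicate 1 was chosen after seeing the data. Intensities give no counts, so 3 arrays a group limit the precision.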

Additional observations from a re-analysis of the deposited data

Results flagged for a closer look

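Aqp1 differed between the oestrogens at 24 h by -1.21 on the log2 scale (E2 minus E3), and this difference changed between 24 h and 2 h by -1.21, both by the test of the difference itself. The 24 h and 2 h responses also differed for other members. After E2, the 24 h minus 2 h change was -1.07 for Aqp1, -0.68 for Aqp2, 2.58 for Aqp4, -2.43 for Aqp5, -5.08 for Aqp8 and 1.58 for Aqp11. Aqp4 was tested only because of its E2 24 h arrays. After E3 it was -0.52 for Aqp2, -2.82 for Aqp5, -3.95 for Aqp8 and 1.58 for Aqp11.

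Aqp12, a pancreatic acinar aquaporin that is no member of the set, was well above background on 2 arrays and on no vehicle array. Its level was 2.29 in E3 24 h replicate 3 and -6.55 in E2 24 h replicate 1, which are also the arrays with the highest mean of the 14 acinar genes (8.42 and -0.32).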

How the results depend on the processing

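No aquaporin change that was called reversed its sign in any of the 29 settings run. The 2 h rises of Aqp8, Aqp5 and Aqp2 and the 2 h falls of Aqp11 against vehicle were called in all 28 other settings run for them. Slide as a fixed block was not among these, because all vehicle arrays were on a slide of their own. Of aquaporins called, E2 24 h against vehicle gave 2, but 1 with quantile normalization, no filter, groups alone, slide as a random block or the replicate block. E3 24 h against vehicle gave 0, but 1 with the array median, 2 with quantile normalization, 1 with probes well above background on all 15 arrays and 1 without both doubted arrays (E3 24 h replicate 3 and E2 24 h replicate 1, a pair chosen after seeing the data). E2 minus E3 at 24 h gave 1, but 0 with slide as a fixed block and 2 with scan day as a block or scan day 1 alone. With slide as a fixed block, E3 24 h minus 2 h gave 1 in place of 4, and the difference of differences 0. Leaving out 1 array gave 1 to 2 for E2 24 h, 0 to 2 for E3 24 h (2 without its replicate 1) and 1 to 2 for E2 minus E3 at 24 h.

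Of all genes called, E3 24 h against vehicle gave 4131, but 2692 with no filter, 1 with groups alone, 2468 with slide as a random block, 2350 with scan day as a block, 2297 on scan day 1 and 2552 without both doubted arrays; leaving out 1 array gave 1400 (vehicle replicate 1) to 5308 (E3 24 h replicate 1). E2 minus E3 at 2 h gave 0, but 1 with groups alone and 0 to 1 without 1 array. At 24 h it gave 3189, but 363 with groups alone, 0 with slide as a fixed block and 1034 without both doubted arrays, and 1827 (E2 24 h replicate 1) to 4044 (E3 24 h replicate 2) without 1 array. E3 24 h minus 2 h gave 134 with slide as a fixed block, in place of 10078. The difference of differences gave 1264, but 574 with no filter, 672 with groups alone, 700 with slide as a random block, 0 with it fixed, 199 with scan day as a block, 612 on scan day 1 and 290 without both doubted arrays, and 432 (E3 2 h replicate 3) to 2217 (E3 24 h replicate 2) without 1 array. The causes were not tested. With the replicate block, the aquaporin count for E2 24 h fell to 1 because Aqp5 was not called, and 884 genes were called for the difference of differences. With the array median as scale, 4216 genes were higher and 3113 lower in E2 2 h, in place of 3165 and 4689.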
